A study of Mus musculus with 12 samples.

Results

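The activation response of KIKO CD4 T cells was measured as the change between 3 libraries of naive cells and 3 libraries of activated cells of that genotype. A locus was included when its level reached 1 FPKM (fragments scaled to transcript length and library size) or more in at least 3 of these 6 libraries, and 9203 of the 15125 loci listed in the series met that rule. KIKO naive cells were splenic CD4 T cells of the mouse taken without stimulation. KIKO activated cells were splenic naive CD4 T cells held for 16 h with beads that carry antibodies to CD3 and CD28. Libraries of KI cells, naive and activated in the same way, 3 of each, served for the test of whether the KIKO change differed from the KI change. The names KI and KIKO are those of the labels, and the alleles behind them are not given in the sources used here, so what all 4 groups share by genotype cannot be stated. The titles of the activated KIKO libraries say T cells without CD4, while their tissue label says splenic CD4 T cell. The series title places the study in the context of proteasome dysfunction in T cells. Values of single libraries are given in the order 1, 2 and 3. No label says whether libraries of 1 group came from separate mice or cultures, so p-values measure only the spread between these libraries.

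A naive CD4 T cell is a small resting cell held in quiescence by factors such as KLF2 and FOXO1 and kept alive by interleukin 7. Engagement of the T cell receptor and CD28 drives calcium, MAP kinase and NF-kB signals, which induce NR4A, EGR and IRF4 factors, interleukin 2 and its high-affinity receptor. The cell then enlarges by making ribosomes, enzymes of biosynthesis and proteasomes, before it enters the cell cycle.

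RNA from 15 ng of total RNA was selected for poly(A) and made into stranded libraries, so each value is a level in a population of cells. Fewer cells of a type and less RNA per cell cannot be told apart in such data. Files held 85319 to 112679 lines and 9771 to 11102 loci per library. KIKO naive library 2 was the shortest and did not list 360 of the 9203 loci (101 and 117 in naive libraries 1 and 3). Its summed transcript starts lay within 10% of the locus level for 84.2% of its loci at 5 FPKM or more. That share was 92.3% to 93.5% in the other KIKO libraries. The leading principal component of the 6 libraries took 69.2% of their variance, with naive scores of -40.6 to -35.8 and activated scores of 20.9 to 52.8. Among the defining T cell genes Cd3e stood at 122 to 149 FPKM in the naive and 109 to 122 FPKM in the activated libraries. Cd3d stood at 121 to 139.9 FPKM and 62.7 to 98.9 FPKM, and Cd3g at 322 to 356 FPKM and 127 to 244 FPKM. Trac, another defining gene, was above 0 in only 3 of the 6 libraries. It read 0 to 78.6 FPKM in naive and 0 to 0.938 FPKM in activated libraries. Summed over the 20 myeloid markers, of which 18 were listed, levels were 35.9, 339.8 and 31.8 FPKM in naive libraries 1 to 3 and 51.8, 291.6 and 35.2 FPKM in activated libraries 1 to 3, so both libraries numbered 2 stood apart. The 17 B cell markers, of which 8 were listed, summed to 2.58 to 8.11 FPKM in naive and 14.4 to 27.4 FPKM in activated libraries, among them Cd74, which rose by 2.5 on the log2 scale. The 14 natural killer and cytotoxic markers summed to 11.1 to 31.4 FPKM and 3.09 to 15.1 FPKM, and Klrd1 among them fell by 2.0. Erythroid and platelet markers reached no more than 3.36 FPKM, and Cd8a no more than 0.591 FPKM. The other CD8 marker, Cd8b1, stood at 12.5 to 16.1 FPKM in naive and 8.39 to 10.04 FPKM in activated libraries. Whether these other cells contributed to the changes below was not tested.

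Of the 9203 loci, 2403 (26.1%) rose on activation and 2129 (23.1%) fell at an adjusted p under 0.05, with 4671 not passing. Without both libraries numbered 2, over all loci tested, 1971 rose and 1627 fell (2448 and 2161 with them). The test was limma on log2(FPKM + 1), fitted over all 9743 loci that reached 1 FPKM in at least 3 of the 12 libraries of the series and adjusted over them by the Benjamini-Hochberg method. Over those 9743 loci 47.3% were called, 25.1% rose, 22.2% fell and the median log2 change was 0.00. A log2 change on this scale understates the change of low genes. The naive and activated libraries did not overlap for 5328 members (57.9%, against 55.9% of all loci tested). Most changes were modest, with the central 90% of members between -1.10 and 1.28, and 749 members rose and 557 fell by more than 1 on the log2 scale. Only rises went beyond 3, in 45 members, while no member fell that far. Of all members 8162 reached 1 FPKM in all 6 libraries and 385 in exactly 3. A locus that is high only in activated cells had to reach the rule through them: 53 members were listed at 0 in all naive libraries, all 53 rose, and for these no log2 change is given. Such members could only rise, and they are counted among the rising genes of the lists below that hold them. The response was graded between replicates: activated library 3 stood nearest the naive cells, being the lowest of the activated libraries in 1989 of the 2403 rising members and the highest in 1611 of the 2129 falling ones. The median log2 change of rising members was 0.76, 0.854 and 0.565 in activated libraries 1, 2 and 3. Among the called genes named below, the naive and activated libraries overlapped for Cd4 and Sem1 and for no other.

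On the log2(FPKM + 1) scale the largest rise among named genes belonged to Irf4 (chr13:30933041-30950959, plus strand, GRCm39), which encodes a transcription factor induced in proportion to receptor signal. Irf4 stood at 1.13, 1.63 and 0.874 FPKM in naive and 279, 356 and 209.8 FPKM in activated libraries (log2 change 6.98 ± 0.20 SE, limma adjusted p = 1.35e-09). Every activated library lay over 100 FPKM above every naive one. As a ratio of mean FPKM, its rise of 233-fold was below those of Spry1 (559-fold) and Fosl1 (386-fold), whose naive levels were under 1 FPKM. Cdkn1a (chr17:29309950-29317811, plus strand), the p21 inhibitor of cyclin-dependent kinases and a p53 target, stood at 0.708, 0 and 0.501 FPKM in naive and 85.2, 119 and 56 FPKM in activated libraries (log2 change 5.94 ± 0.28 SE, limma adjusted p = 6.39e-08). Il2ra (chr2:11647568-11698004, plus strand), the alpha chain of the interleukin 2 receptor, stood at 0, 0 and 1.11 FPKM in naive and 52.6, 65.9 and 40.7 FPKM in activated libraries (log2 change 5.37 ± 0.27 SE, limma adjusted p = 1.10e-07). Il2ra was listed at 0 in naive libraries 1 and 2, and its groups did not overlap. Spry1, a feedback inhibitor of receptor signalling, stood at 0.224, 0 and 0.0892 FPKM in naive and 52.1, 95.9 and 27.3 FPKM in activated libraries (log2 change 5.58 ± 0.32 SE, limma adjusted p = 3.0e-07), with its locus listed under a neighbouring predicted gene. Among the other leading rises were Nr4a1, an orphan nuclear receptor (log2 change 5.08), and Fosl1, an AP-1 subunit (4.41). Phlda3, a p53-induced AKT inhibitor, rose by 4.39, Gtse1 by 4.35, Plk2 by 4.34, Cish by 4.32 and Gadd45b by 4.15. Tnnt2, which encodes a troponin subunit, was listed at 0 in all naive libraries and stood at 49, 42 and 36.2 FPKM in the activated ones, while its summed transcript ends alone read 4.79, 4.2 and 2.24 FPKM. The Gapdh locus, also listed at 0 in naive libraries, read 183, 16.7 and 46.9 FPKM, and its value is uncertain because Gapdh has many near-identical pseudogenes.

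**Figure D1:**
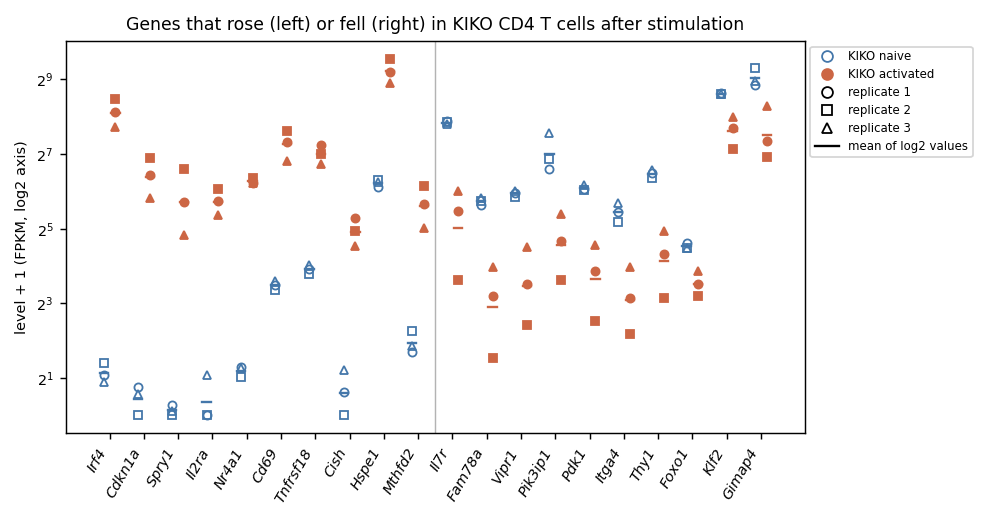
Selected rising and falling genes of KIKO cells, not all of them among the largest changes, with the level plus 1 FPKM on a log2 axis. Points are single libraries of naive (open) and activated (filled) cells and short lines their means on the log scale; for Irf4 the naive points lie below 2 FPKM and the activated ones at 209.8 FPKM or above.

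Early transcription factors of receptor signalling rose in most cases. Of the 29 listed factors 18 passed the filter on low values, of which 12 rose and 3 fell, with a median log2 change of 1.86 (0.00 over all loci tested). Nr4a1 stood at 1.44, 1.05 and 1.42 FPKM in naive and 74.5, 81.7 and 74.4 FPKM in activated libraries (log2 change 5.08 ± 0.15 SE, limma adjusted p = 1.35e-09). Egr2 and Egr3, zinc finger factors of the same early wave, rose by 2.34 and 2.94 on the log2 scale from levels at or near 0, and Nr4a3 by 2.77. Bhlhe40, a helix-loop-helix repressor, rose from 0.292, 0 and 0.446 FPKM to 18, 23.6 and 9.91 FPKM (log2 change 3.81 ± 0.35 SE, limma adjusted p = 7.37e-06), with activated library 3 lowest. Against the majority fell Nfatc3, a calcium-dependent factor present before stimulation (log2 change -0.66 ± 0.15 SE, limma adjusted p = 0.00361), and Prdm1, which encodes BLIMP1 (log2 change -0.76 ± 0.22 SE, limma adjusted p = 0.0118). The Prdm1 call was lost with a pseudocount of 0.1 (limma adjusted p = 0.169) and with transcript starts only (0.125). The NF-kB group moved one way: of 14 listed subunits and inhibitors 12 were tested, 9 rose and none fell, with a median of 1.03. Nfkb1, the p105 and p50 subunit, stood at 31.3, 31.7 and 33.1 FPKM in naive and 109, 142 and 90.6 FPKM in activated libraries (log2 change 1.77 ± 0.13 SE, limma adjusted p = 1.88e-06). Nfkb2 (1.98), Relb (1.62), Bcl3 (2.08), Nfkbid (2.14) and the inhibitor Nfkbia (0.98) rose as well on the log2 scale, and for none of these 6 genes did the groups overlap.

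Activation and costimulatory receptors appeared at the transcript level, with 17 of 20 tested (23 listed) rising and 2 falling, and a median log2 change of 2.18. Cd69, an early activation antigen that retains cells in the lymph node, stood at 10.3, 9.31 and 11.2 FPKM in naive and 161, 197 and 113 FPKM in activated libraries (log2 change 3.77 ± 0.18 SE, limma adjusted p = 5.96e-08). Tnfrsf18, which encodes GITR, stood at 14.2, 12.9 and 15.4 FPKM in naive and 149.6, 128 and 106 FPKM in activated libraries (log2 change 3.08 ± 0.14 SE, limma adjusted p = 5.34e-08). The costimulatory receptor gene Icos rose from 3.45, 3.71 and 4.49 FPKM to 18.5, 18.1 and 17.7 FPKM (log2 change 1.97 ± 0.11 SE, limma adjusted p = 1.97e-07). Cd69 was lowest among the activated libraries in library 3, whereas Icos was nearly level across them. Tnfrsf9 (4-1BB) and the inhibitory receptor Lag3 were listed at 0 in all naive libraries and read 18, 19.6 and 14.6 FPKM and 13.5, 24 and 10.3 FPKM in the activated ones. Both could therefore only rise. Cd27 fell (log2 change -0.53 ± 0.17 SE, limma adjusted p = 0.0243), a call lost without naive library 2, naive library 3 or activated library 2, one at a time, and with the replicate block (limma adjusted p = 0.0584). The count of 2 became 1 without each of these libraries and with the block too. Of 12 tested genes of regulatory T cells (17 listed) 9 rose and 2 fell (1 without naive library 1, naive library 3 or activated library 2), with a median of 1.32. The inhibitory receptors Ctla4 and Tigit, which activated conventional T cells also express, rose by 3.08 and 2.9.

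Among 31 listed cytokines and TNF family ligands 16 passed the filter; 9 rose, 1 fell, and the median log2 change was 1.20. Il2, the growth factor of T cells, was listed at 0 in all naive libraries and stood at 9.39, 13.5 and 9.22 FPKM in activated libraries 1 to 3. Lif and the chemokine Ccl4 were also listed at 0 in naive cells and read 8.21, 10.8 and 3.95 FPKM and 6.25, 19.7 and 6.01 FPKM. For Ccl4 activated library 2 was about 3 times the other activated libraries. From 0, Il2, Lif and Ccl4 could only rise. Tnfsf8, the CD30 ligand, rose from 4.65, 4.15 and 4.6 FPKM to 33.2, 54.2 and 27.5 FPKM (log2 change 2.79 ± 0.19 SE, limma adjusted p = 1.01e-06). Tnfsf4, the OX40 ligand, rose by 4.33 and Tnf by 2.77 on the log2 scale. Ltb, which encodes lymphotoxin beta of resting lymphocytes, stood at 327, 351 and 352 FPKM in naive and 122, 71.5 and 183 FPKM in activated libraries (log2 change -1.55 ± 0.25 SE, limma adjusted p = 0.000346). Cd40lg, the ligand through which helper cells license B cells, fell from 45.9, 42.5 and 44.2 FPKM to 19.3, 14.9 and 23 FPKM (log2 change -1.19 ± 0.18 SE, limma adjusted p = 0.00022). As this list holds only 1 falling gene, no more than 1 of Ltb and Cd40lg is counted in it.

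Cytokine receptors and their signal proteins divided, with 9 rising, 13 falling and 5 not passing of 27 tested (33 listed) and a median of -0.07. The shares were 33.3% rising and 48.1% falling, against 25.1% and 22.2% of all loci tested. The rising side held Il2rb, the beta chain of the interleukin 2 receptor, at 1.7, 2.85 and 1.42 FPKM in naive and 22.5, 22.1 and 20.1 FPKM in activated libraries (log2 change 2.94 ± 0.17 SE, limma adjusted p = 2.88e-07). It also held Cish, a STAT5-induced feedback inhibitor (log2 change 4.32 ± 0.28 SE, limma adjusted p = 6.27e-07). The falling side held Il7r (chr15:9503536-9530474, minus strand), the survival receptor of naive cells, at 234, 229.9 and 222 FPKM in naive and 43.3, 11.3 and 63.5 FPKM in activated libraries (log2 change -2.81 ± 0.51 SE, limma adjusted p = 0.000825). Il7r fell in each activated library but by very different amounts, lowest in library 2. Il6ra and the shared kinase Jak1 fell by 1.95 and 1.07 on the log2 scale.

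The T cell receptor complex and its proximal kinases were balanced, at 14 rising, 14 falling and 6 not passing of 34 tested, with a median of -0.05. Both shares were 41.2%, against 25.1% rising and 22.2% falling over all loci tested. Zap70, the kinase recruited to the engaged receptor, stood at 50.7, 39 and 46.8 FPKM in naive and 146, 179.8 and 96.4 FPKM in activated libraries (log2 change 1.57 ± 0.19 SE, limma adjusted p = 4.69e-05), at a locus without a symbol in the files that was matched by exon lengths. Dusp2, a MAP kinase phosphatase, rose from 20.4, 21.3 and 21.2 FPKM to 74.1, 80.6 and 53.5 FPKM (log2 change 1.66 ± 0.16 SE, limma adjusted p = 1.09e-05). Lck, the Src family kinase upstream of Zap70, stood at 162, 145 and 169.9 FPKM in naive and 78.8, 68.4 and 99.9 FPKM in activated libraries (log2 change -0.96 ± 0.12 SE, limma adjusted p = 8.35e-05). The Ras activator Rasgrp1 fell by 1.45 and the exchange factor Vav1 by 0.63. Cd4 itself (chr6:124841655-124877702, minus strand) stood at 154, 137 and 172 FPKM in naive and 96.2, 86.4 and 138 FPKM in activated libraries (log2 change -0.55 ± 0.15 SE, limma adjusted p = 0.0101). For Cd4 the highest activated library, number 3, lay above the lowest naive one, so its groups overlapped. The CD8 marker Cd8b1 fell (log2 change -0.52 ± 0.12 SE, limma adjusted p = 0.00441), a call lost without both libraries numbered 2 (limma adjusted p = 0.0505). In naive libraries Cd8b1 stood at 12.5 to 16.1 FPKM, but Cd8a at only 0 to 0.125 FPKM. Whether the Cd8b1 transcript came from CD8 cells was not tested.

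The naive program was lowered. Of 33 tested quiescence genes (36 listed) 22 fell and 4 rose (2 without activated library 2), with a median log2 change of -0.72. Klf2, the factor that sets quiescence and trafficking, stood at 398, 387 and 391 FPKM in naive and 208, 139 and 255 FPKM in activated libraries (log2 change -1.0 ± 0.24 SE, limma adjusted p = 0.00502). Foxo1 fell from 23.7, 21.3 and 21.5 FPKM to 10.5, 8.27 and 13.6 FPKM (log2 change -1.0 ± 0.14 SE, limma adjusted p = 0.000177). The antiproliferative Tob1 fell by 0.97 on the log2 scale. Foxo3 moved the other way, rising by 0.67, and Id3, an inhibitor of E proteins, by 1.04. The largest falls among called genes with a symbol that is no predicted gene, a mean of at least 5 FPKM in one group and no overlap between the groups were Fam78a (log2 change -2.84 ± 0.43 SE, limma adjusted p = 0.000261) and Il7r. They were followed by Rflnb (-2.58), the proton pump subunit gene Atp6v1d (-2.5; with transcript starts only -5.2, a call lost at limma adjusted p = 0.0705), Vipr1, a receptor for vasoactive intestinal peptide (-2.47), and Pik3ip1, an inhibitor of PI3 kinase (-2.44). Next came Pdk1 (-2.44), St8sia6 (-2.38), the integrin Itga4 (-2.34) and Thy1 (-2.34). Cdc25b (-2.32), Tmie (-2.30), H2-Ob (-2.28), Acss1 (-2.22) and Matk (-2.2) completed the 15 leading falls, all as log2 changes. In each of these 15 genes activated library 2 was the lowest and activated library 3 the highest of the activated libraries. Homing receptors fell in 6 and rose in 4 of 16 tested (23 listed), with a median of -0.26 (-0.43 without naive library 3). Of the integrin chains Itgb7 (-1.79) and Itga6 (-1.53) fell, while Itgb1 rose by 0.5. All 6 tested GIMAP GTPases, survival proteins of lymphocytes, fell, with a median of -1.11. Gimap4 stood at 464, 634 and 499 FPKM in naive and 162, 120.1 and 309 FPKM in activated libraries (log2 change -1.53 ± 0.26 SE, limma adjusted p = 0.000574). Gimap3 and Gimap6 fell by 1.28 and 1.53. Gimap8 fell by 0.74, a call lost without both libraries numbered 2.

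The promoters of quiescence genes were searched for the KLF box CCCCACCC on both strands, over 300 bases around the transcript start, most of them before it, in the RefSeq table of GRCm38.p6. There, 7024 of 8955 members with a usable symbol had an entry. The box was present in 16 of 45 promoters of the group (35.6%), 15.2% of promoters of falling members, 10.3% of those of rising members and 9.99% of all 32851 promoters. Windows from 2 falling genes are shown because they carry that box, in capitals, near the start. Themis, a T cell receptor signalling protein, has it 41 bases before the start (chr10:28668291-28668338, plus strand), and Als2cl has its reverse complement 33 bases before the start (chr9:110880261-110880308, plus strand).
Themis: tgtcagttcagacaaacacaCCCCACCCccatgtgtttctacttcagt
Als2cl: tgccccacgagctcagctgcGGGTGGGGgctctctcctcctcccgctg
Themis fell from 23.5, 18.5 and 21.9 FPKM to 5.32, 2.47 and 8.15 FPKM (log2 change -1.92 ± 0.26 SE, limma adjusted p = 0.000117). Als2cl fell from 163, 137 and 155 FPKM to 44.3, 27.9 and 60.7 FPKM (log2 change -1.82 ± 0.22 SE, limma adjusted p = 6.13e-05). A match to the letters is a description, not a site of binding or a cause, and the promoter shares carry no test.

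**Figure D2:**
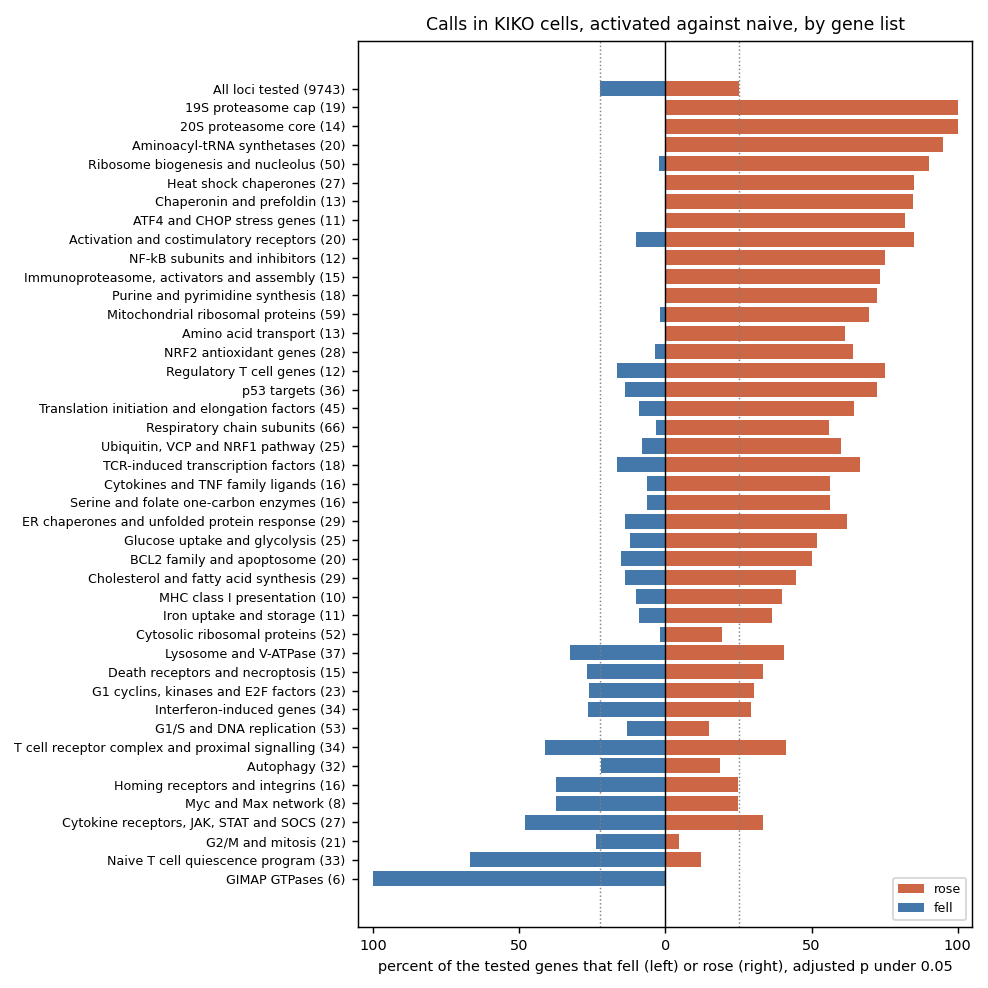
Percent of the tested genes of each list that rose (right of 0) or fell (left of 0) in KIKO cells, as bars, with dotted lines at the 25.1% and 22.2% of all loci tested. The proteasome core and cap reach 100% on the rising side, and the GIMAP list reaches 100% on the falling side.

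Myc, the growth regulator, stood at 8.23, 6.37 and 7.06 FPKM in naive and 34.4, 44.2 and 27.6 FPKM in activated libraries (log2 change 2.13 ± 0.17 SE, limma adjusted p = 2.79e-06), and the groups did not overlap. Of 8 tested genes of the Myc and Max network (13 listed), Myc included, 2 rose and 3 fell; Mlx rose by 0.52 and the repressor Mnt fell by 0.52. Ribosome biogenesis and nucleolar genes rose in 45 of 50 tested (51 listed) and fell in 1, with a median log2 change of 1.05. Mybbp1a, a nucleolar protein, stood at 22, 19.2 and 20.8 FPKM in naive and 79.3, 94.2 and 57.1 FPKM in activated libraries (log2 change 1.82 ± 0.16 SE, limma adjusted p = 5.71e-06). Utp20, of the small subunit processome, rose from 4.54, 3.9 and 5.19 FPKM to 19.9, 23.8 and 14.5 FPKM (log2 change 1.86 ± 0.19 SE, limma adjusted p = 1.74e-05). Polr1c, of the RNA polymerases that make ribosomal and transfer RNA, rose by 1.18 and Nop16 by 1.40. Wdr12 was the single member that fell (log2 change -0.72 ± 0.14 SE, limma adjusted p = 0.00115), a direction that turned when only summed transcript starts were used. The E-box CACGTG was present in 12 of 50 promoters of the group (24.0%) and in 7.15% of all promoters. Rising members carried it no more often (10.3%) than members that did not pass (10.9%), and falling members had 9.93%. The lysosome and V-ATPase list, which moved in both directions, had it in 11 of 31 promoters (35.5%).

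Most cytosolic ribosomal proteins did not pass, with 10 rising, 1 falling and 41 not passing of 52 tested (59 listed) and a median of 0.06. The shares that rose (19.2%) and fell (1.92%) lay below the 25.1% and 22.2% of all loci tested. The count of 10 fell to 5 without naive library 1, activated library 1 or activated library 2 and to 6 without naive library 3, and the 1 falling gene became 9 after quantile normalization or rescaling to an equal sum. Rps2 stood at 423, 469.9 and 415 FPKM in naive and 1106, 1173 and 856 FPKM in activated libraries (log2 change 1.25 ± 0.13 SE, limma adjusted p = 1.53e-05). Genes of ribosomal proteins have many near-identical pseudogenes, so single values are uncertain. Mitochondrial ribosomal proteins rose in 41 of 59 tested (65 listed) and fell in 1, with a median of 0.64, led by Mrps6 (log2 change 2.19 ± 0.14 SE, limma adjusted p = 6.80e-07) and Mrps22 (log2 change 1.55 ± 0.13 SE, limma adjusted p = 3.05e-06). Translation factors rose in 29 of 45 and fell in 4, with a median of 0.51. Eif4ebp1, which restrains cap-dependent translation, stood at 4.61, 4.78 and 6.72 FPKM in naive and 49.3, 66 and 28.5 FPKM in activated libraries (log2 change 2.88 ± 0.24 SE, limma adjusted p = 4.40e-06). Eif5a rose from 55.8, 67.2 and 64.7 FPKM to 194, 219 and 158 FPKM (log2 change 1.58 ± 0.16 SE, limma adjusted p = 1.34e-05). The initiation factor gene Eif3c rose by 1.27 on the log2 scale. The falling ones included Pdcd4, an inhibitor of the helicase eIF4A (log2 change -1.32 ± 0.15 SE, limma adjusted p = 3.89e-05), and Eif4ebp2 (log2 change -0.87 ± 0.13 SE, limma adjusted p = 0.000207). The Pdcd4 call was lost with transcript ends only (-0.79, limma adjusted p = 0.2).

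Aminoacyl-tRNA synthetases, which charge tRNAs with amino acids, rose in 19 of 20 tested (40 listed) and none fell, with a median of 1.16. Aars, the alanine enzyme, stood at 10.2, 9.74 and 9.59 FPKM in naive and 61.9, 82.7 and 42.2 FPKM in activated libraries (log2 change 2.5 ± 0.18 SE, limma adjusted p = 1.44e-06). Nars (2.17), Cars (2.2) and Wars (1.23) rose as well on the log2 scale. The letters TGATGNAA, the core of an element through which ATF4 acts, were present on either strand in 5 of 14 synthetase promoters (35.7%) and in 3.97% of all promoters. Rising members carried that element in 2.07% of promoters, falling members in 2.39% and members that did not pass in 1.89%. The Aars window is shown because it carries that element, as its reverse complement in capitals, 104 bases before the start (chr8:111033710-111033757, plus strand, GRCm38.p6, RefSeq).
Aars: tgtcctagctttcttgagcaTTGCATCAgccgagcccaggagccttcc
The locus that holds Aars is listed under the name of its neighbour Exosc6 and was named by its exon lengths.

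Metabolic enzymes rose in most of their groups, though by smaller medians than the early factors. Glycolysis genes rose in 13 of 25 tested and fell in 3 (5 without naive library 2), with a median of 0.40. Aldoa stood at 226, 267 and 239 FPKM in naive and 612, 673 and 495 FPKM in activated libraries (log2 change 1.27 ± 0.12 SE, limma adjusted p = 1.29e-05). Pfkp rose by 1.60, Pkm by 1.38, Pgk1 by 1.27 and Ldhb by 1.13 on the log2 scale. The glucose transporter gene Slc2a3 fell (log2 change -0.44 ± 0.12 SE, limma adjusted p = 0.00875). That call was lost when only the largest transcript event was counted (limma adjusted p = 0.127) and with transcript ends only (0.199). Serine and folate enzymes rose in 9 of 16 and fell in 1 (0 without naive library 2, naive library 3, activated library 2 or activated library 3), with a median of 0.61. Psat1, of serine synthesis, stood at 1.69, 1.27 and 1.83 FPKM in naive and 24.9, 34 and 16.2 FPKM in activated libraries (log2 change 3.27 ± 0.22 SE, limma adjusted p = 1.01e-06). Mthfd2, the mitochondrial folate enzyme, stood at 2.23, 3.76 and 2.66 FPKM in naive and 49.5, 69.6 and 31.3 FPKM in activated libraries (log2 change 3.67 ± 0.28 SE, limma adjusted p = 2.08e-06). Activated library 2 was the highest for both genes and activated library 3 the lowest. Phgdh (3.12), Shmt2 (2.62) and Mthfd1 (1.82) rose as well. Purine and pyrimidine synthesis rose in 13 of 18 with none falling and a median of 0.81, among them Cad (2.12), Umps (1.78) and the salvage enzyme Hprt (0.79). Cholesterol and fatty acid synthesis rose in 13 of 29 and fell in 4, with a median of 0.38. Cyp51 rose by 1.61 and Idi1 by 1.63, and the exporter Abcg1 fell by 1.75. Respiratory chain subunits rose in 37 of 66 and fell in 2, with a median of 0.43 (Ndufa1 1.02, Ndufa4 1.06).

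Genes of the amino acid response rose. The ATF4 and CHOP list, targets of the integrated stress response, rose in 9 of 11 tested (20 listed) with none falling, and the median was 1.60. Sesn2, a stress-induced inhibitor of mTORC1, stood at 1.78, 4.53 and 1.87 FPKM in naive and 38.6, 50.8 and 24.6 FPKM in activated libraries (log2 change 3.41 ± 0.29 SE, limma adjusted p = 4.78e-06). Ddit4, another mTORC1 inhibitor, rose from 3.6, 3.56 and 4.48 FPKM to 42.2, 43.3 and 28.1 FPKM (log2 change 2.97 ± 0.19 SE, limma adjusted p = 6.42e-07), Ppp1r15a, which encodes GADD34, by 1.52, and Aldh18a1, of proline synthesis, by 1.60. Asns and Atf3 were listed at 0 in all naive libraries and read 7.85, 17.7 and 5.66 FPKM and 14.7, 27.1 and 8.16 FPKM in the activated ones. Asns and Atf3 could therefore only rise. Amino acid transport rose in 8 of 13 with none falling and a median of 0.85. Slc3a2, the heavy chain of the large neutral amino acid transporter, stood at 30.5, 28.8 and 31.2 FPKM in naive and 196, 259.9 and 141 FPKM in activated libraries (log2 change 2.64 ± 0.17 SE, limma adjusted p = 6.27e-07), with activated library 3 lowest and far above every naive library. Slc7a1 (1.88) and Slc1a5 (1.19) rose, though Slc1a5 did not pass with transcript ends only (0.13, limma adjusted p = 0.806). Slc1a4 and Slc7a3 went from 0 in the naive libraries to 3.31, 5.62 and 1.66 FPKM and 2.08, 3.37 and 1.47 FPKM. From 0, Slc1a4 and Slc7a3 could only rise.

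Targets of p53 rose in 26 of 36 tested (38 listed) and fell in 5, with a median log2 change of 1.52. Cdkn1a, given above, led them. Ccng1 stood at 32.7, 34.3 and 35.5 FPKM in naive and 132, 158 and 97.8 FPKM in activated libraries (log2 change 1.86 ± 0.15 SE, limma adjusted p = 2.76e-06). Plk2, a polo-like kinase, stood at 0.244, 0 and 0.526 FPKM in naive and 26.3, 34.2 and 15.5 FPKM in activated libraries (log2 change 4.34 ± 0.27 SE, limma adjusted p = 5.69e-07). Gtse1, a microtubule protein that p53 induces, rose from 1.5, 2.87 and 0.92 FPKM to 60, 71.5 and 34.7 FPKM (log2 change 4.35 ± 0.30 SE, limma adjusted p = 1.13e-06). Trp53 itself rose from 32, 42 and 39.4 FPKM to 72.1, 81.8 and 64.4 FPKM (log2 change 0.93 ± 0.12 SE, limma adjusted p = 7.63e-05). Sesn1 (-2.03) and the repair gene Ddb2 (-1.34) fell, both genes with high naive levels.

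Heat shock chaperones rose in 23 of 27 tested (30 listed) with none falling and a median of 1.41. Hspe1, the mitochondrial co-chaperonin HSP10, stood at 69.1, 78.9 and 75.4 FPKM in naive and 583, 753 and 475 FPKM in activated libraries (log2 change 2.98 ± 0.17 SE, limma adjusted p = 2.95e-07). Hsph1, of the HSP110 class, rose from 21, 23.3 and 23.5 FPKM to 164, 231 and 139 FPKM (log2 change 2.89 ± 0.15 SE, limma adjusted p = 1.72e-07). With transcript ends only the Hsph1 change was 0.32 and did not pass (limma adjusted p = 0.716). Hspa4l rose by 2.71, Stip1 by 2.12 and Hsp90ab1 by 2.21 on the log2 scale. The heat shock element, searched as GAA, any 2 bases, TTC, any 2 bases and GAA, was present in 7 of 28 promoters of the group (25%) and in 0.603% of all promoters, searched on both strands. The Hspe1 window holds it in capitals 71 bases before the start (chr1:55088044-55088096, plus strand, GRCm38.p6, RefSeq) and is shown as the promoter of the leading gene.
Hspe1: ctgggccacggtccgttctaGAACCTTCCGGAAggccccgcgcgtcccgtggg
Chaperonin and prefoldin subunits rose in 11 of 13 with a median of 0.98 (Cct3 1.74). Chaperones of the endoplasmic reticulum rose in 18 of 29 and fell in 4, with a median of 0.47, led by Hspa5, the BiP chaperone (log2 change 2.08 ± 0.16 SE, limma adjusted p = 2.26e-06). Canx, the calnexin gene, rose by 1.48, and Dnajc3 fell by 0.37. NRF2 antioxidant genes rose in 18 of 28 and fell in 1, with a median of 0.63. Srxn1, which repairs oxidized peroxiredoxins, was listed at 0 in naive libraries and read 8.41, 19.6 and 6.05 FPKM in the activated ones. From 0, Srxn1 could only rise. Txn1, the thioredoxin gene, stood at 53.2, 58.1 and 51.3 FPKM in naive and 156, 168 and 124 FPKM in activated libraries (log2 change 1.43 ± 0.13 SE, limma adjusted p = 6.03e-06). Nqo1 rose by 1.12, G6pdx by 1.45 and Hmox1 by 2.14, while Gpx4 fell by 0.54. Iron genes rose in 4 of 11 and fell in 1 (kept without KI naive 3, KI activated 1, KIKO naive 1 or KIKO activated 3, and 0 without any other single library), with a median of 0.20. Their shares were 36.4% and 9.09%, against 25.1% and 22.2% of all loci tested. Tfrc, the transferrin receptor, stood at 3.01, 3.34 and 3.8 FPKM in naive and 13.2, 14 and 8.67 FPKM in activated libraries (log2 change 1.54 ± 0.17 SE, limma adjusted p = 3.51e-05). Fth1, of the ferritin iron store, rose by 0.42.

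The proteasome genes rose as whole complexes: all 14 tested subunits of the 20S core, which holds the proteolytic sites, and all 19 tested subunits of the 19S cap (20 listed), with medians of 1.33 and 1.16. Psma5 stood at 60.8, 68.6 and 64.1 FPKM in naive and 225, 263 and 169 FPKM in activated libraries (log2 change 1.73 ± 0.15 SE, limma adjusted p = 5.96e-06). Psmd14, the deubiquitinase of the lid, stood at 42.6, 49.6 and 50.2 FPKM in naive and 151, 178 and 129 FPKM in activated libraries (log2 change 1.66 ± 0.12 SE, limma adjusted p = 1.48e-06). Psma4 rose by 1.5, Psmd2 by 1.49 and Psmc5 by 1.34, and the smallest core change named was Psmb1 (log2 change 0.53 ± 0.09 SE, limma adjusted p = 0.000438). Psmb5, the chymotrypsin-like subunit, is listed at a locus named Mir686 and was matched by exon lengths. Psmb5 stood at 1.98, 2.54 and 2.95 FPKM in naive and 7.99, 35.5 and 4.47 FPKM in activated libraries (log2 change 1.81 ± 0.49 SE, limma adjusted p = 0.00899). Activated library 2 was far above the others, and the log2 change was 1.02 without it. With only the KIKO libraries fitted, the limma adjusted p of Psmb5 was 0.0571. In naive libraries Psmb5 lay far below Psma5 (60.8 to 68.6 FPKM), and whether its locus holds the whole gene was not tested. Sem1 rose (log2 change 0.53 ± 0.16 SE, limma adjusted p = 0.0179), with overlapping groups and a call lost without any 1 of KIKO naive library 1, KIKO naive library 3, KIKO activated library 1 or KIKO activated library 2. Of 15 tested immunoproteasome, activator and assembly genes (19 listed) 11 rose and none fell, with a median of 0.62. Pomp, the assembly factor, stood at 27, 43.1 and 30.7 FPKM in naive and 87.8, 97.4 and 77.2 FPKM in activated libraries (log2 change 1.37 ± 0.17 SE, limma adjusted p = 5.46e-05). Psme2, of the PA28 activator, rose by 1.62, a call lost with transcript ends only (0.65, limma adjusted p = 0.147). The interferon-inducible subunits gave values of -0.29 (Psmb8), 0.03 (Psmb9) and -0.02 (Psmb10) on the log2 scale and did not pass. Psmb8 passed as a fall under quantile normalization (-0.39, limma adjusted p = 0.0171), an equal sum (-0.40, 0.0168), a filter at 5 FPKM (0.0452) and without KI activated library 3 (0.0479) or KIKO activated library 3 (-0.37, 0.0224). Psmd10 gave a log2 change of 0.17 and did not pass. Of 25 tested ubiquitin pathway genes 15 rose and 2 fell (1 without naive library 2 or any 1 activated KIKO library), with a median of 0.81, including Rad23b, a shuttle receptor (1.15), Uba1, an activating enzyme (0.90), Zfand2a (1.14) and, falling, Ngly1 (-0.82). Autophagy rose in 6 (18.8%) and fell in 7 (21.9%) of 32 tested, against 25.1% and 22.2% of all loci tested, with a median of -0.07. The 7 became 4 without activated library 2 and 12 after quantile normalization or rescaling to an equal sum. Sqstm1, the p62 receptor, stood at 235, 285 and 248 FPKM in naive and 461, 523 and 400.0 FPKM in activated libraries (log2 change 0.84 ± 0.13 SE, limma adjusted p = 0.000229). Gabarapl1, of the ATG8 family, rose by 1.40. Lysosome and V-ATPase genes rose in 15 (40.5%) and fell in 12 (32.4%) of 37, with a median of 0.20. Both directions occurred even within the proton pump (Atp6v1h 1.13, Atp6v0d1 -0.94).

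Of 53 tested genes of the G1/S transition and DNA replication (58 listed) 8 rose (15.1%), 7 fell (13.2%) and 38 did not pass, with a median of 0.26 (0.14 without activated library 2 and 0.13 with transcript starts only). The 8 became 13 without KI activated library 1, 4 without KIKO activated library 1 and 3 without KIKO activated library 2, and the 7 became 4 without naive library 1, naive library 3, activated library 1 or activated library 2 of KIKO cells. Mcm5, of the replicative helicase, stood at 4.34, 4.51 and 4.7 FPKM in naive and 7.52, 8.63 and 7.12 FPKM in activated libraries (log2 change 0.66 ± 0.18 SE, limma adjusted p = 0.00874). Pcna, the sliding clamp, rose from 31.1, 30.6 and 32 FPKM to 47.1, 46.9 and 41.4 FPKM (log2 change 0.51 ± 0.13 SE, limma adjusted p = 0.00749). Timeless (-1.53), Rpa1 (-1.12) and Dck (-1.55) fell. Neither the Mcm5 nor the Pcna call held without both libraries numbered 2. G1 cyclins, kinases and E2F factors rose in 7 (30.4%) and fell in 6 (26.1%) of 23, against 25.1% and 22.2% of all loci tested, with a median of -0.03. Ccnd2, the cyclin D2 of lymphocytes, stood at 10.7, 8.48 and 11.5 FPKM in naive and 36.5, 39.4 and 34.4 FPKM in activated libraries (log2 change 1.75 ± 0.11 SE, limma adjusted p = 6.68e-07). Ccnd3, the cyclin D3 gene, stood at 44.6, 56.6 and 51.7 FPKM in naive and 22.7, 16.9 and 28.5 FPKM in activated libraries (log2 change -1.16 ± 0.15 SE, limma adjusted p = 0.000102). E2f3 rose by 1.82 and Cdkn1b, which encodes p27, fell by 1.55. Mitotic genes rose in 1 (4.76%) and fell in 5 (23.8%, against 22.2% of all loci tested) of 21 tested (30 listed). Their median was -0.16 (-0.36 without naive library 1, -0.38 without naive library 3 and -1.77 with a filter at 5 FPKM). The 1 became 2 without KI naive library 3 or KIKO naive library 3, and the 5 became 3 without KI naive library 1, KI activated library 1, KIKO naive library 2, KIKO activated library 1 or KIKO activated library 2. Bub1b, the checkpoint kinase, rose from 0.00318, 0 and 0.0205 FPKM to 1.95, 11.9 and 4.68 FPKM, widest in library 2, and Cenpa fell by 1.22.

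Genes of apoptosis rose on both sides of the balance. Of 20 tested BCL2 family and apoptosome genes (28 listed) 10 rose and 3 fell (1 without activated library 1 or activated library 2), with a median of 0.79. Bcl2l1, which encodes the survival protein BCL-XL, stood at 3.81, 3.19 and 2.72 FPKM in naive and 28.3, 30 and 18.2 FPKM in activated libraries (log2 change 2.62 ± 0.18 SE, limma adjusted p = 1.05e-06). Bcl2l11, the pro-apoptotic BIM, rose from 13.2, 12.3 and 13.1 FPKM to 29, 32.9 and 28.7 FPKM (log2 change 1.17 ± 0.11 SE, limma adjusted p = 1.09e-05). Apaf1, the apoptosome scaffold, rose from 4.02, 5.35 and 3.97 FPKM to 17.6, 19.1 and 14.2 FPKM (log2 change 1.72 ± 0.17 SE, limma adjusted p = 1.09e-05). Bax, a pro-apoptotic pore protein, rose by 1.65 on the log2 scale. Death receptor and necroptosis genes rose in 5 (33.3%) and fell in 4 (26.7%) of 15 tested, against 25.1% and 22.2% of all loci tested, with a median of -0.02. The 4 became 2 without both libraries numbered 2. Fas, the CD95 death receptor, stood at 15.7, 13 and 12 FPKM in naive and 53.3, 65 and 45.4 FPKM in activated libraries (log2 change 1.92 ± 0.17 SE, limma adjusted p = 6.54e-06). Mlkl, the executioner of necroptosis, rose from 2.52, 4.7 and 3.19 FPKM to 20.1, 26.6 and 18.1 FPKM (log2 change 2.35 ± 0.20 SE, limma adjusted p = 5.54e-06). Its upstream kinase gene Ripk3 rose by 1.60, while Casp8 fell by 0.75.

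Interferon-induced genes were called about as often as all loci tested, with 10 rising (29.4% against 25.1%), 9 falling (26.5% against 22.2%) and 15 not passing of 34 tested (52 listed) and a median of 0.03, which became -0.04 once all libraries were scaled to 1 sum and -0.01 under quantile normalization. The rising genes named here are GTPases of host defence. Gbp2, a guanylate-binding protein, stood at 11.9, 13.8 and 10.2 FPKM in naive and 112, 153 and 132 FPKM in activated libraries (log2 change 3.36 ± 0.22 SE, limma adjusted p = 6.80e-07). Gbp5, of the same family, stood at 1.09, 1.25 and 1.34 FPKM in naive and 21, 31.9 and 25.4 FPKM in activated libraries (log2 change 3.59 ± 0.17 SE, limma adjusted p = 6.39e-08). The p47 GTPases Irgm1 (2.08), Irgm2 (2.0) and Iigp1 (2.74) rose as well, in all 3 activated libraries to similar levels, library 3 included. The falling genes included the RNA sensor Ddx58 (log2 change -1.48 ± 0.25 SE, limma adjusted p = 0.000468) and Trim25 (log2 change -0.77 ± 0.12 SE, limma adjusted p = 0.000276). An interferon response element, searched as GAAA, any 2 bases and GAAA, was present on either strand in 14 of 28 promoters of the group (50%) and in 3.44% of all promoters. Rising members carried it in 3.19% of promoters, falling members in 2.26% and members that did not pass in 3.26%. The windows of Gbp5 and Gbp2 are shown because both carry it, as its reverse complement in capitals, 155 and 49 bases before the start (chr3:142496749-142496798 and chr3:142620584-142620633, plus strand, GRCm38.p6, RefSeq).
Gbp5: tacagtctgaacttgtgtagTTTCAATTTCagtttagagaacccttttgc
Gbp2: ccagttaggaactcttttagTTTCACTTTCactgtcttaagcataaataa
Genes of MHC class I presentation rose in 4 (2 without both libraries numbered 2) and fell in 1 (then 0) of 10 tested (17 listed), with a median of 0.14. Nlrc5, the transactivator of class I genes, stood at 8.54, 10.1 and 10 FPKM in naive and 18.6, 21 and 21.9 FPKM in activated libraries (log2 change 1.03 ± 0.11 SE, limma adjusted p = 1.78e-05). The peptide transporter gene Tap1 stood at 64.8, 65 and 67.3 FPKM in naive and 79.7, 101 and 92.3 FPKM in activated libraries (log2 change 0.46 ± 0.11 SE, limma adjusted p = 0.00584), a call lost without both libraries numbered 2 (limma adjusted p = 0.0523) and with transcript ends only (0.962).

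The change in KIKO cells was then set against that in KI cells by the interaction term of the same limma fit, that is, the KIKO log2 change minus the KI log2 change. Of the 9743 loci 876 (8.99%) had a higher and 1134 (11.6%) a lower change in KIKO cells; the 1134 became 747 without KI activated library 3. Among the 9203 members the shares were 9.36% and 12.0%. Among the KIKO members that rose, 531 had a lower and 289 a higher change than in KI cells, and among those that fell 128 had a lower and 238 a higher change. Ribosome biogenesis had 40 of 50 genes lower and 0 higher, with medians of 1.05 in KIKO and 2.10 in KI cells. G1/S and DNA replication had 42 of 53 lower and 0 higher, with medians of 0.26 and 1.44. Mitochondrial ribosomal proteins had 23 lower and 0 higher (0.64 and 1.05), and respiratory chain subunits 25 lower and 0 higher (0.43 and 0.96). Purine and pyrimidine synthesis had 12 lower and 0 higher (0.81 and 1.57), and cholesterol and fatty acid synthesis 14 lower and 0 higher (0.38 and 1.06). On the other side p53 targets had 16 of 36 higher and 0 lower, with medians of 1.52 and 0.51. The ATF4 and CHOP genes had 9 of 11 higher and 0 lower (1.60 and 0.67), and interferon-induced genes 15 of 34 higher and 0 lower (0.03 and -0.73). NRF2 genes had 12 of 28 higher and 2 lower (0.63 and 0.02), and autophagy 12 of 32 higher and 0 lower (-0.07 and -0.44). The core and cap of the proteasome had medians of 1.33 and 1.16 in KIKO cells and 1.45 and 1.28 in KI cells. The core had 0 of 14 genes higher or lower, and the cap had 3 of 19 lower and 0 higher. Immunoproteasome, activator and assembly genes had 2 of 15 higher and 3 lower.

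**Figure D3:**
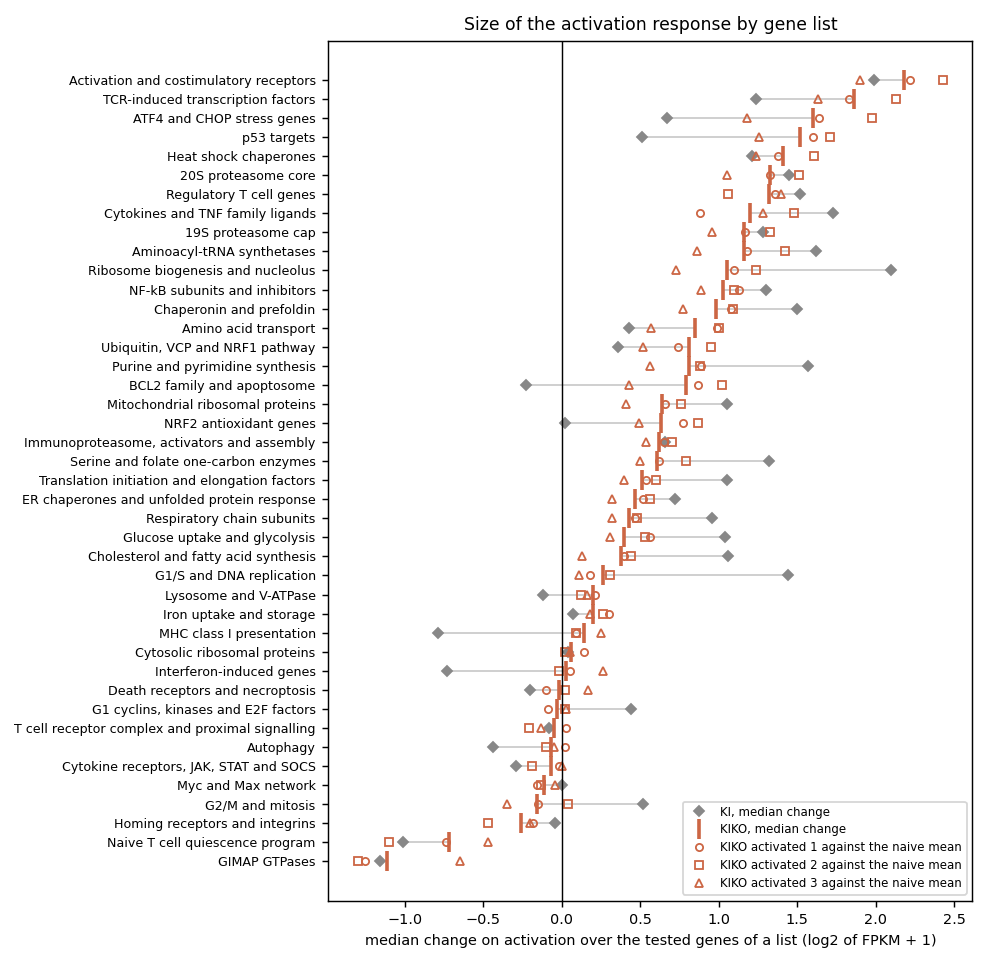
Median log2 change on activation over the tested genes of each list (x axis), for KIKO cells (bars), KI cells (grey diamonds) and each KIKO activated library against the naive mean (open symbols). Ribosome biogenesis lies at 1.05 in KIKO and 2.10 in KI cells, and p53 targets at 1.52 and 0.51.

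Single genes of these groups gave the following differences, each as the KIKO change minus the KI change. On the higher side stood Plk2 (3.52 ± 0.38 SE, limma adjusted p = 0.00025), Fosl1 (3.31 ± 0.58 SE, limma adjusted p = 0.00261), Gtse1 (2.97 ± 0.43 SE, limma adjusted p = 0.00104) and Cdkn1a (2.75 ± 0.40 SE, limma adjusted p = 0.00104), the last with a KI change of 3.19 beside 5.94 in KIKO cells. The GTPases Iigp1 (3.30), Irgm1 (3.0), Gbp2 (2.71) and Irgm2 (2.35) followed; the changes of Irgm1, Irgm2 and Iigp1 in KI cells were -0.92, -0.35 and -0.56. Among stress genes Sesn2 differed by 2.74, Eif4ebp1 by 2.29, Nqo1 by 1.86, Slc3a2 by 1.66, Ppp1r15a by 1.5 and Sqstm1 by 1.5. Death genes on that side were Mlkl (2.24), Fas (2.08), Apaf1 (1.95) and Bcl2l11 (1.43), with KI changes of 0.11, -0.15, -0.23 and -0.26. Nlrc5, Tap1 and Ldhb differed by 1.34, 1.23 and 1.25. On the lower side stood Mcm5 (-2.44 ± 0.25 SE, limma adjusted p = 0.000196), with a KI change of 3.11, Tfrc (-2.17 ± 0.25 SE, limma adjusted p = 0.000296), Thy1 (-2.07 ± 0.48 SE, limma adjusted p = 0.0108), Idi1 (-1.65), Mybbp1a (-1.25), Myc (-1.20), Ccnd3 (-0.85) and Lck (-0.71). Thy1, a surface glycoprotein of T cells, stood at 89.7, 81.4 and 93.5 FPKM in naive and 18.9, 7.9 and 29.9 FPKM in activated libraries. It changed by -2.34 in KIKO and -0.27 in KI cells. With a pseudocount of 0.1 the differences of Cdkn1a and Mlkl did not pass (limma adjusted p = 0.144 and 0.0652). With transcript ends only, those of Thy1, Tfrc and Tap1 did not pass (limma adjusted p = 0.0738, 0.151 and 0.0926).

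**Figure D4:**
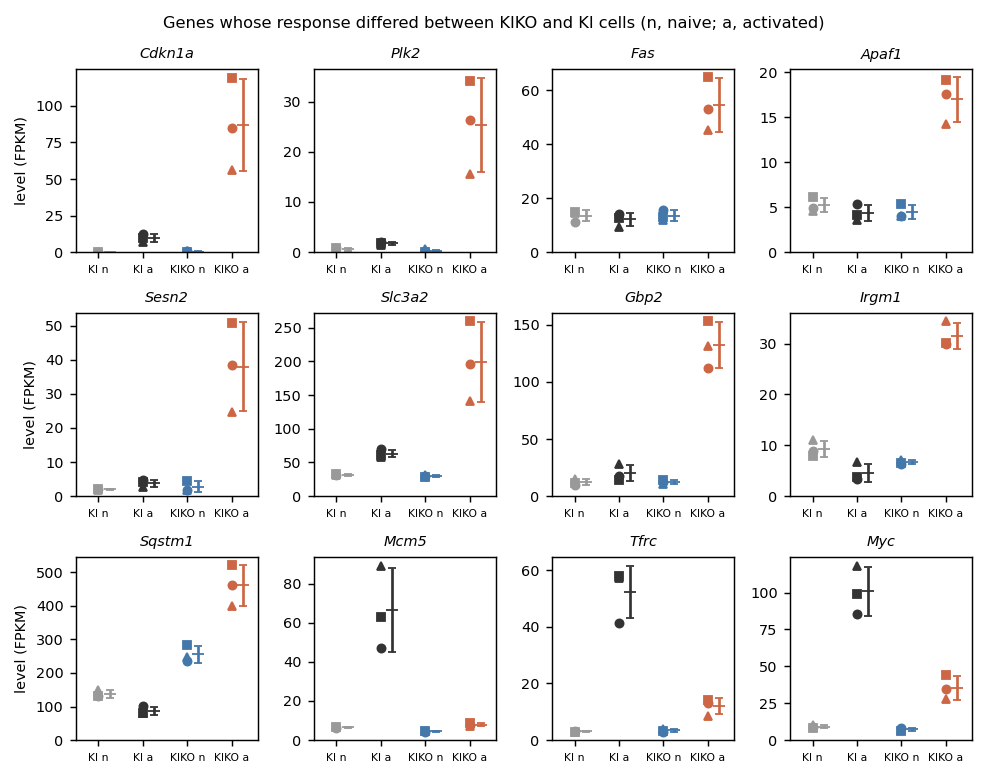
Level in FPKM of 12 genes whose response differed between KIKO and KI cells, by group, with a point for each library and the mean ± SD of 3 libraries beside them. Activated KIKO libraries read 7.12 to 8.63 FPKM for Mcm5 and 15.5 to 34.2 FPKM for Plk2.

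Exon use was read from the deposited exon events, as the share of transcripts that include an exon out of those that include or skip it. Among 1389 exons with an inclusion of 5% to 95% on average and at least 5 FPKM of both forms summed in every library, 7 (0.504%) rose and 10 (0.72%) fell on activation in KIKO cells by limma at an adjusted p under 0.05. This test and the genes named here were chosen after their values were seen. In Ptprc, which encodes the CD45 phosphatase and is known to change its variable exons on activation, the middle of 3 neighbouring exons (147 bases, chr1:138047758-138047904, minus strand, GRCm39) was included at 76.0%, 55.6% and 66.9% in naive libraries 1 to 3 and at 22.6%, 18.2% and 27.1% in activated libraries 1 to 3, a change of -43.5 ± 5.4 percentage points (SE, limma adjusted p = 0.00185). The groups were far apart, and in KI cells the change was -36.3 points. Its neighbours of 141 and 129 bases changed by 11.0 and 11.1 points and did not pass (limma adjusted p = 0.241 and 0.181). Other falls were as follows. A 312-base exon of Tra2a went from 72.2%, 85.8% and 100% to 21.7%, 24.5% and 24.3%, a 104-base exon of Srsf2 fell by 40.9 points, a 268-base exon of Srsf6 by 26.2 points, a 96-base exon of Prpf3 by 39.5 points and a 59-base exon of Ddx39 by 31.0 points. A pair of overlapping Snrnp70 exons fell by 48.4 and 33.0 points. A 72-base exon of Ktn1 fell by 38.1 points and a 1092-base exon of Ndufv3 by 32.3 points. An exon of Hnrnph1 rose by 43.2 points, and other rises were in Ift80 (48.5), Mllt6 (40.1), Sh2b3 (40), Cenpt (33.0), Bicdl1 (20.7) and Birc2 (16.4). Of the 1389 exons, Cenpt's was the 1 whose change differed from that in KI cells (limma adjusted p = 0.0493). That exon was included at 100% in all KI and all activated KIKO libraries, so the KI change was 0 at the upper limit of the scale and the departure lay in the naive KIKO libraries. The Birc2 exon also read 100% in all KI libraries. Naive libraries read 82.0% to 94.3% in KI and 41.4% to 49.9% in KIKO cells for Mllt6. For Sh2b3 they read 38.3% to 45.4% and 0% to 21.7%. At an unadjusted p under 0.05 the limma fit named 227 exons; with only the KIKO libraries in the fit 0 of the 17 calls remained, and the 17 became 27 without naive library 3.

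**Figure D5:**
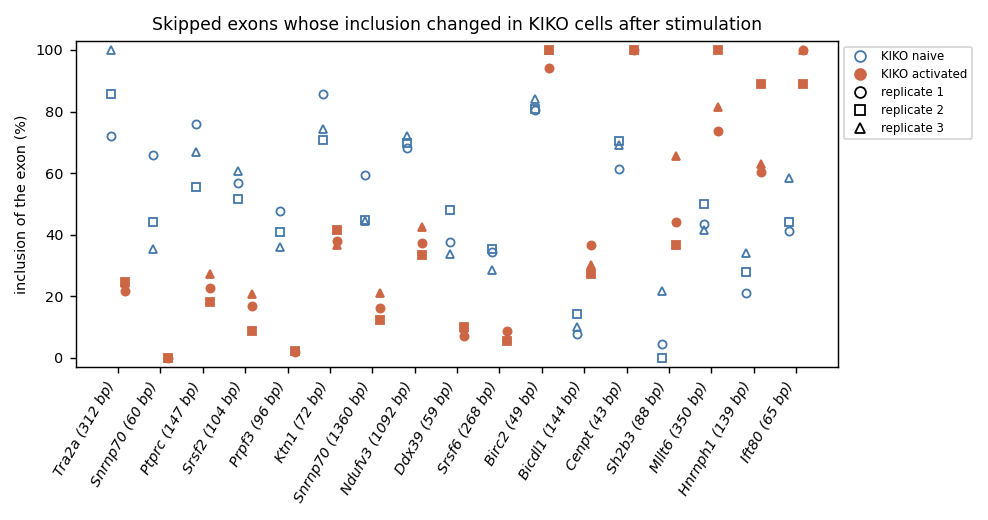
Inclusion of the exons that changed on activation in KIKO cells, in percent, for each naive and activated library. The Ptprc exon lies between 55.6% and 76.0% in naive and between 18.2% and 27.1% in activated libraries.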

How the data were processed

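RNA was sequenced from naive and activated mouse CD4 T cells labelled KI and KIKO. Per the submitters' processing notes FastQC 0.11.9, cutadapt 2.9 and HISAT2 2.2.0 were used, with the builds GRCm39 and mm10; which program made the transcript events was not given in the sources used here. Each deposited library file holds the authors' FPKM per event, with GRCm39 coordinates. Fragment counts are not used here and the depth behind a value is unknown, so no counting interval is given.

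Repeated events were dropped. The level of a locus was the largest of its summed transcript starts, summed transcript ends and largest single event, and 0 where not listed. Symbols were checked by comparing exon and intron lengths with GENCODE M21, and loci whose lengths fitted another gene were renamed. Log2(FPKM + 1) of the 9743 loci at 1 FPKM or more in at least 3 of 12 libraries was fitted with limma 3.58.1 (R 4.3.3) with 4 group means and an intensity trend; p-values were adjusted over all of them and called under 0.05. The fit was tested on simulated data. Exon inclusion was 100 times the including over the including plus skipping FPKM.

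Named genes were the 15 largest called changes each way with a mean of 5 FPKM or more in one KIKO group and no overlap, up to 6 of each list by p and up to 3 against its majority, a few genes set by name, all proteasome genes, and other-cell markers at 5 FPKM or more. Some genes that this rule selects are not reported here. The members and lists were chosen with earlier results of these data known. Alternatives were other scalings, filters, pseudocounts, locus levels and designs, and leaving out each library.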

Additional observations from a re-analysis of the deposited data

Results flagged for a closer look

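The difference between the KIKO and the KI activation response was tested by the interaction term of the limma fit, and the following values, each the KIKO log2 change minus the KI log2 change, passed at an adjusted p under 0.05. Higher in KIKO cells were 876 loci and lower were 1134 loci. Among genes of p53 and AP-1, the differences were 2.75 for Cdkn1a, 3.31 for Fosl1, 2.97 for Gtse1 and 3.52 for Plk2. Among stress and nutrient genes they were 2.29 for Eif4ebp1, 1.25 for Ldhb, 1.66 for Slc3a2, 2.74 for Sesn2, 1.5 for Ppp1r15a, 1.5 for Sqstm1 and 1.86 for Nqo1. Among death genes they were 1.95 for Apaf1, 1.43 for Bcl2l11, 2.08 for Fas and 2.24 for Mlkl. Among interferon and antigen presentation genes they were 2.71 for Gbp2, 3.00 for Irgm1, 2.35 for Irgm2, 3.30 for Iigp1, 1.34 for Nlrc5 and 1.23 for Tap1. On the lower side they were -2.07 for Thy1, -0.71 for Lck, -1.20 for Myc, -1.25 for Mybbp1a, -1.65 for Idi1, -2.44 for Mcm5, -0.85 for Ccnd3 and -2.17 for Tfrc.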

How the results depend on the processing

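Of 5009 values of 203 named genes under 25 alternatives, 4968 kept direction and call, 26 lost the call, 7 gained it and 8 turned direction. Psmb9 turned to -0.02 with quantile normalization, -0.07 with an equal sum, -0.16 without KIKO naive 1 and -0.09 without KIKO activated 3 (highest 0.17, without KIKO naive 2); Wdr12 to 0.94 with transcript starts only, Cd27 to 1.70 with ends only, and Psmb10 to 0.23 without KIKO activated 2 and 0.24 without KIKO replicate 2 in both groups (lowest -0.15, without KIKO activated 3). Of list medians, cytosolic ribosomal proteins turned to -0.08 (quantile) and -0.05 (equal sum); interferon-induced genes to -0.01, -0.04, -0.08 (without naive 2) and -0.02 (without activated 3; highest 0.19, without activated 2); G1 cyclins to 0.11 (filter at 5 FPKM), 0.07 (starts only), 0.08, 0.01, 0.05 and 0.05 (without naive 1, naive 2, activated 1 and activated 2); death receptors to 0.16 (ends only), 0.10, 0.03, 0.18 and 0.14 (without naive 1, activated 1, activated 2 and replicate 2 in both); homing receptors to 0.08 and the Myc network to 0.06 (ends only). With ends only, an alternative chosen after seeing the data, 2746 loci changed (1605 up, 1141 down; members 1583 and 1130) and 1114 responses differed (459 higher, 655 lower). Asking for a log2 change of 1 left 1338 (761 and 577) and 722 (324 and 398). Leaving out 1 library gave 3599 to 4663 changed loci (up 1959 to 2480, down 1640 to 2183; members 1937 to 2428 up and 1625 to 2153 down), 1361 to 2103 differences (higher 611 to 966, lower 747 to 1164) and 14 to 27 exons. Exon calls were 27 at 10 FPKM and 0 with only the KIKO libraries. The falling counts of 0 or 1 in the ribosomal protein, immunoproteasome, amino acid transport and purine lists moved by at most 2 without single libraries. The cause of these changes was not tested. Of 4609 calls 3375 were also called without replicate 2 in both KIKO groups and 3858 with only the KIKO libraries. Risers made up 53.1% of calls, 43.2% after rescaling to an equal sum. Deviations of same-numbered KIKO libraries had r of -0.004, 0.094 and 0.035 over all loci, under the 0.1 asked of every pair. Those of same-numbered KI libraries had r of 0.055, 0.079 and 0.102, the last above 0.1. As not every pair reached 0.1, the fit has no block, although both KIKO libraries numbered 2 share high myeloid markers. With the replicate block 2330 rose, 2100 fell and 822 and 1014 differed.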
